A study of Bos taurus with 63 samples.

Results

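The calgranulins S100A8 (ENSBTAG00000012640), S100A9 (ENSBTAG00000006505) and S100A12 (ENSBTAG00000012638) were followed in leukocytes of German Holstein dams and newborn female calves. These 3 genes of the 23010 genes with counts were chosen by identifier. The counts analysed here came from 63 blood samples after lysis of the red cells, with 1 library per sample. Control dams (19 libraries) and dams with direct heat stress (direct HS, 12 libraries) were dry cows in late gestation. Direct HS means that the temperature-humidity index (THI) had a daily mean of 60 or more the day before the blood was taken, and control dams were below that limit. Control calves (30 libraries) carry the label no heat stress, which does not say whether direct or maternal stress is meant. The calf HS-IU_2048 carries the label heat stress, which does not say whether the stress was direct or maternal, and the labels give no HS status for HS-IU_1804, a library labelled dam. The study left HS-IU_1804 out of its tests because its expression grouped with that of calves, and it entered no comparison here. All libraries had the same batch number. The study sampled mothers and their daughters, and some females both as calf and later as dam. The animal numbers in the names of the 63 libraries all differ, but the labels do not say which libraries share a family. The tests treat all libraries as separate animals. A library held 4340680 to 14206517 reads on genes in control dams, 4427037 to 10569898 in direct HS and 5417064 to 19584521 in control calves.

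Calgranulins are small calcium-binding proteins of the S100 family that neutrophils and monocytes hold in large amounts in the cytosol. S100A8 and S100A9 pair to form calprotectin, which binds zinc and manganese and so withholds these metals from bacteria, and the released proteins act on the receptor TLR4. S100A12 is best known as a ligand of the receptor AGER (RAGE) and also binds zinc and copper. In cattle, calgranulins are used as markers of mastitis and other inflammation. In the RefSeq annotation of ARS-UCD2.0, which is not the build of the counts, the 3 genes stand directly next to each other, with S100A12 between S100A8 and S100A9. In whole leukocytes, more cells of a type and more RNA per cell cannot be told apart. The markers of neutrophils, monocytes, lymphocytes and platelets set for this purpose could not be read, because 0 of the 23010 identifiers of the counts were paired with a gene name in the annotation. The leukocyte label was therefore not checked against markers, and the part of cell composition in the differences below was not tested.

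All 3 genes were abundant in every animal. Together they took from 0.332% to 1.15% of the reads in control dams (median 0.517%), from 0.264% to 0.665% in dams with direct HS (median 0.469%) and from 0.286% to 1.88% in control calves (median 0.718%). The fewest reads on S100A8 in any library of these groups were 1790, so counting error was small beside the differences between animals. Levels are given as read counts scaled to library size (CPM) after TMM normalization. They are not corrected for gene length, so levels of different genes are not compared with each other.

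S100A8 ranged in control dams from 277.8 to 1134 CPM with a median of 526 CPM. In dams with direct HS it ranged from 256 to 939 CPM with a median of 510 CPM. In control calves it ranged from 260.1 to 1654 CPM with a median of 701 CPM. The groups overlapped over most of their range, with 4 of 30 control calves above the highest control dam and 2 of 30 below the lowest. Control dams had a mean of 558 ± 229 CPM (SD, n = 19) and dams with direct HS of 573 ± 226 CPM (SD, n = 12). The mean of control calves was 747 ± 372 CPM (SD, n = 30).

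S100A9 ranged in control dams from 687 to 2904 CPM with a median of 1159.5 CPM. In dams with direct HS it ranged from 606 to 1917 CPM with a median of 1164 CPM. In control calves it ranged from 766 to 4881 CPM with a median of 2079 CPM. The medians of both dam groups were nearly the same, and 24 of 30 control calves lay above the median of control dams, 8 of them above the highest control dam. Control dams had a mean of 1366 ± 567 CPM (SD, n = 19) and dams with direct HS of 1229.5 ± 372 CPM (SD, n = 12). The mean of control calves was 2227 ± 1073 CPM (SD, n = 30).

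S100A12 ranged in control dams from 1965 to 7969.8 CPM with a median of 3021 CPM. In dams with direct HS it ranged from 1632 to 3983 CPM with a median of 2808 CPM. In control calves it ranged from 1805 to 12746 CPM with a median of 5169 CPM. Of the dams with direct HS, 3 of 12 lay above the median of control dams and 2 of 12 below the lowest control dam. Of the control calves, 24 of 30 lay above the median of control dams and 4 of 30 above the highest. Control dams had a mean of 3565 ± 1378 CPM (SD, n = 19) and dams with direct HS of 2767 ± 718 CPM (SD, n = 12). The mean of control calves was 5388 ± 2668 CPM (SD, n = 30).

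**Figure D1:**
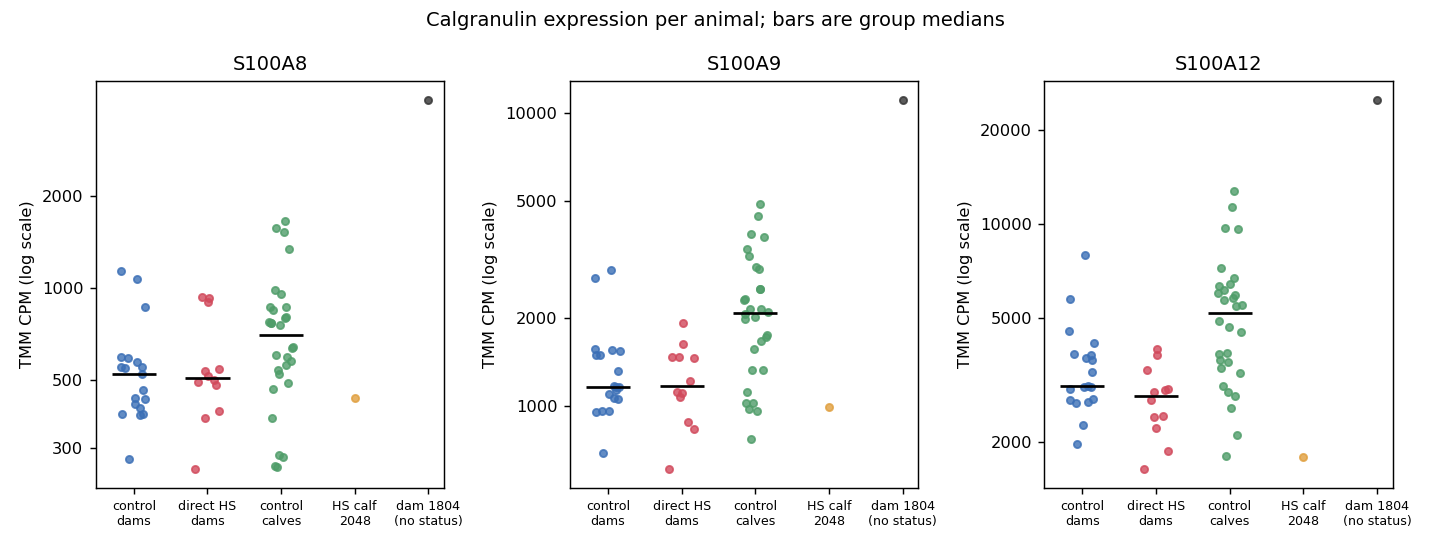
TMM CPM on a log axis of S100A8, S100A9 and S100A12 in each animal (1 point per animal), by group, with a bar at the group median. Control calves reach higher than dams in all 3 genes (up to 12746 CPM for S100A12), the groups overlap, and the library labelled dam without an HS status lies above every other animal.

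The first comparison asked whether calgranulin expression differed between dams with direct HS and control dams. Of the 3 genes, 0 differed at an adjusted p below 0.05 in the quasi-likelihood test of edgeR (Benjamini-Hochberg over 11645 genes), where 2.66% of all tested genes did. S100A12 was lower with direct HS by a log2 fold change of -0.37 (SE 0.16), with an unadjusted p of 0.0267 and an adjusted p of 0.199. The log2 fold change was -0.16 ± 0.18 (SE) for S100A9, with an adjusted p of 0.666, and 0.03 ± 0.19 (SE) for S100A8, with an adjusted p of 0.948. Single dams moved both values, that of S100A9 to -0.05 without HS-IU_1622, and that of S100A8 to below 0 without any 1 of 4 dams. A p above the threshold does not show that the dam groups were alike. Of the 3 genes, 0 passed the threshold in DESeq2 and 0 in limma-voom, and 1 of 3, S100A12, had an unadjusted p below 0.05 in each of the 3 tools. In edgeR this p rose above 0.05 without HS-IU_1622 (log2 fold change -0.26, p = 0.0657), HS-IU_1721 (p = 0.0522) or HS-IU_1844 (p = 0.0547). The median log2 fold change of all 11645 genes lay at -0.0022.

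The second comparison was between generations, control calves against the same control dams, and 39.7% of 11762 tested genes differed at an adjusted p below 0.05, 22.3% being higher in calves. Of the calgranulins, 2 of 3 were higher in calves at this threshold. S100A9 had the largest log2 fold change of the 3, 0.70 ± 0.19 (SE), with an adjusted p of 0.00215. The log2 fold change of S100A12 was 0.59 ± 0.18 (SE), with an adjusted p of 0.00748. That of S100A8, 0.42 ± 0.19 (SE), did not pass the threshold (adjusted p = 0.0709). Because calves differed from dams in a large share of all genes, the count of 2 of 3 stands against a high background. S100A9 and S100A12 stayed past the threshold with each of the 49 animals left out in turn. S100A8 passed it when all dams with a status were set against all calves, with the calf HS-IU_2048 among them (log2 fold change 0.38, adjusted p = 0.0378), a fit in which 46% of 11753 genes passed and 26.5% passed and were higher in calves. It also passed without any 1 of the control dams HS-IU_1467, HS-IU_1622 and HS-IU_1711 or of the control calves HS-IU_2006, HS-IU_2017, HS-IU_2026 and HS-IU_2032, with log2 fold changes up to 0.50 and adjusted p down to 0.0271. The 3 dams are among the 5 highest control dams in all 3 genes.

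Control calves had the highest mean and the highest median of the 3 groups in all 3 genes. The order of the dam groups depended on the measure, since direct HS had the higher mean but the lower median in S100A8 and the lower mean but the higher median in S100A9, and both its mean and its median were lower in S100A12. Of the differences between the dam groups, 0 of 3 passed the adjusted threshold, and neither did that between control dams and control calves in S100A8. With dams with direct HS in place of control dams, a fit added after the data had been seen, control calves were higher in S100A12 by 0.97 ± 0.22 (SE) on the log2 scale, with an adjusted p of 0.000692, and in S100A9 by 0.86 ± 0.22 (SE), with an adjusted p of 0.00273. For S100A8 the difference was 0.39 ± 0.23 (SE), with an adjusted p of 0.187. The 2 of 3 genes that passed stand beside 33.6% of 11727 genes that passed in that fit, with 18.7% passing and higher in calves. In that setting, 18 of 30 control calves lay above the highest dam with direct HS in S100A9, 18 of 30 in S100A12 and 6 of 30 in S100A8.

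**Figure D2:**
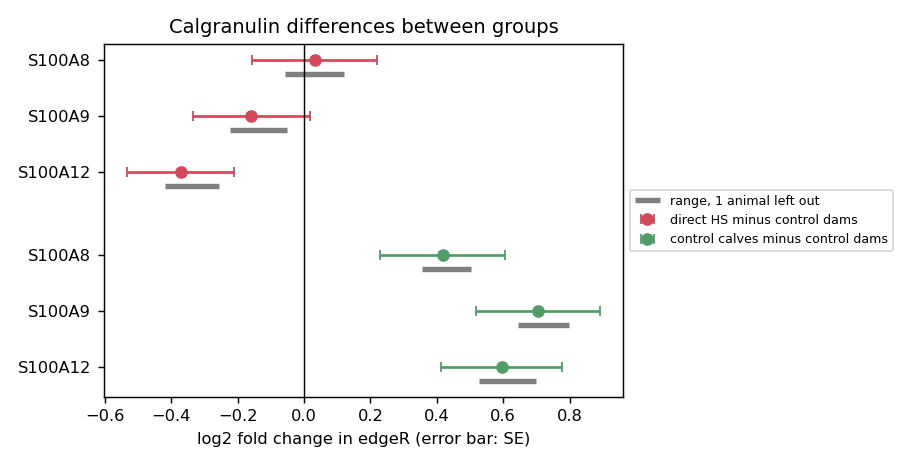
Log2 fold change (x axis) of each calgranulin in direct HS against control dams (red) and in control calves against control dams (green), with the SE as error bar and, in grey, the range when 1 animal is left out at a time. The red points run from 0.03 for S100A8 to -0.37 for S100A12, and the green points all lie above 0, from 0.42 to 0.70.

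Animals within a group differed several-fold. The highest control calf had 6.36 times the S100A8, 6.37 times the S100A9 and 7.06 times the S100A12 of the lowest. In all 3 genes the highest was HS-IU_2016 and the lowest was HS-IU_2032. Among control dams the highest animal had 4.08, 4.23 and 4.06 times the level of the lowest, HS-IU_1828. Among dams with direct HS these values were 3.66, 3.16 and 2.44, and the lowest was HS-IU_1844 in all 3 genes.

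On the log2 CPM scale, the SD between control dams was 0.51 for S100A8, 0.50 for S100A9 and 0.47 for S100A12. Over all tested genes the median SD between control dams was 0.31, and 17.8% of genes had an SD at least as large as that of S100A8 and 22.4% as that of S100A12. Between control calves the SD was 0.72, 0.71 and 0.69 in the same order, against a median of 0.39 over all genes, and 14.5%, 15.6% and 16.5% of genes had an SD at least as large. The calgranulins therefore varied more than most genes in both generations. The larger spread in calves did not pass the test, which does not show that the spread was alike in both generations. The mean absolute deviation from the group median was larger in calves by 0.18 (SE 0.12) for S100A8, 0.20 (SE 0.12) for S100A9 and 0.22 (SE 0.11) for S100A12, with adjusted p of 0.466, 0.402 and 0.358 in limma over 11762 genes. Of the 3 genes, 0 passed at an adjusted p below 0.05 and 0 had an unadjusted p below 0.05. On the square root of CPM, S100A12 had an unadjusted p of 0.0121 and an adjusted p of 0.209. In this test 0.051% of all genes passed, 0.034% with the larger spread in calves.

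The 3 genes rose and fell together from animal to animal in every group. Correlations were computed on log2 CPM within groups, with two-sided permutation tests of 100000 resamples for both coefficients and Benjamini-Hochberg adjustment over 9 relations. In control calves (n = 30), Pearson's r was 0.96 for S100A8 and S100A9 (Spearman's rho 0.96), 0.90 for S100A8 and S100A12 (rho 0.94) and 0.90 for S100A9 and S100A12 (rho 0.91). Each had a permutation p of 1e-05, the smallest the permutations can give, with an adjusted p of 1.29e-05 for r and 3e-05 for rho. Without the 2 calves farthest from the median of the first gene, r was 0.95, 0.89 and 0.87. The animals at the upper end were shared, since HS-IU_2008, HS-IU_2010, HS-IU_2016 and HS-IU_2038 were among the 5 highest control calves in all 3 genes.

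In control dams (n = 19), r was 0.93 for S100A9 and S100A12 (rho 0.85), 0.88 for S100A8 and S100A9 (rho 0.67) and 0.84 for S100A8 and S100A12 (rho 0.63). The permutation p of r was 1e-05 in each pair (adjusted p = 1.29e-05). The permutation p of rho was 4e-05, 0.00204 and 0.00466 in the same order (adjusted p = 9e-05, 0.00306 and 0.00599). Without the 2 dams farthest from the median, r was 0.85, 0.72 and 0.67, so the relations with S100A8 rested in part on these 2 dams. HS-IU_1467, HS-IU_1622 and HS-IU_1711 were the control dams among the 5 highest in all 3 genes.

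In dams with direct HS (n = 12), r was 0.95 for S100A9 and S100A12 (rho 0.93), 0.79 for S100A8 and S100A12 (rho 0.64) and 0.75 for S100A8 and S100A9 (rho 0.70). The permutation p of r was 1e-05, 0.00254 and 0.00522 (adjusted p = 1.29e-05, 0.00286 and 0.00522). The permutation p of rho was 8e-05, 0.0278 and 0.0142 (adjusted p = 0.000144, 0.0278 and 0.0160). Without the 2 farthest dams, r was 0.89, 0.81 and 0.78. The loosest relations involved S100A8, where HS-IU_1800 had the highest S100A8 of the group, 939 CPM, beside 1114 CPM of S100A9, below the median of the group. Whether the coefficients differ between groups was not tested.

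**Figure D3:**
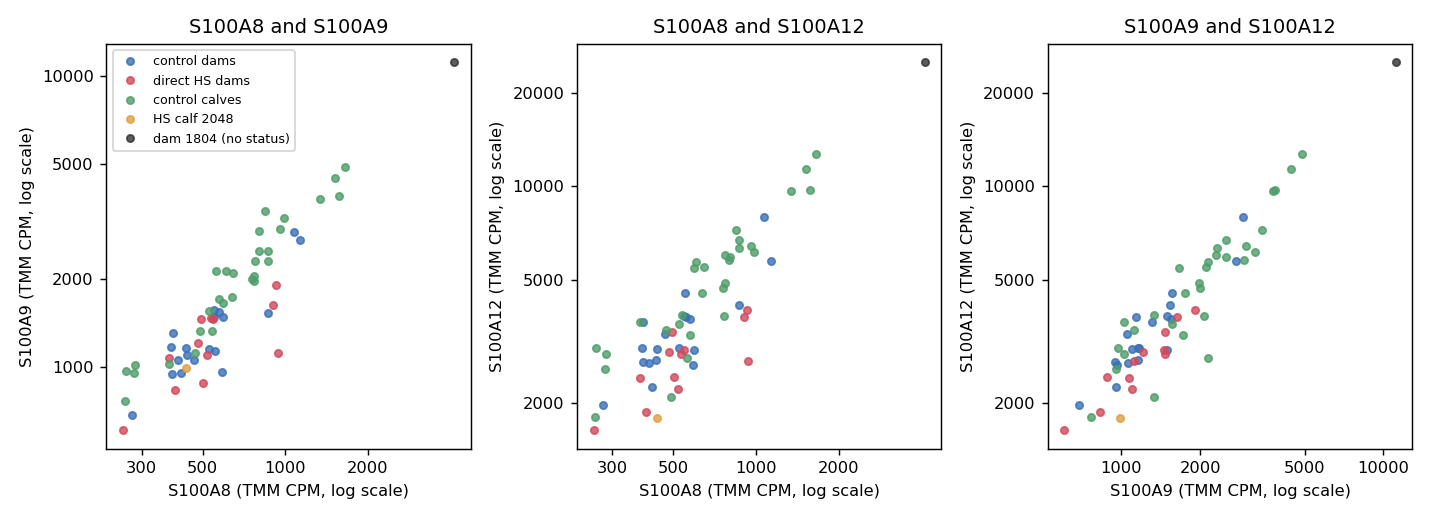
Each pair of calgranulins plotted against each other as TMM CPM on log axes, 1 point per animal and coloured by group. The points run along a line in every group, most tightly for S100A8 and S100A9 in control calves (r = 0.96), and the library labelled dam without an HS status continues the line at its upper end.

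The closeness of the 3 genes was set against all other genes whose mean count in the group reached 14, as a description. In control calves, S100A9 was the gene with the highest r to S100A8 among 11585 genes and S100A8 the gene with the highest r to S100A9, while S100A12 was the third for S100A8 and the second for S100A9. In control dams, S100A9 and S100A12 were each other's closest gene among 11549 genes, while S100A9 was the 5th closest to S100A8 and S100A12 the 25th. In dams with direct HS, S100A9 and S100A12 were again each other's closest among 11481 genes. There, S100A12 was only the 124th closest to S100A8 and S100A9 the 204th. Over all genes the mean r with the 3 calgranulins had a median of -0.02 in control dams, -0.03 with direct HS and -0.07 in control calves. Its 95th percentile was 0.61, 0.57 and 0.60.

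Of the 5 genes with the highest mean r to the calgranulins in each group, 1 was shared between groups. ENSBTAG00000013201, given by identifier, was the first in control dams with a mean r of 0.87 and the fifth in control calves with 0.84. Its mean level was 71.7 CPM in control dams and 75.4 CPM in direct HS, beside 209 CPM in control calves. The first gene in dams with direct HS, ENSBTAG00000013290, had a mean r of 0.88.

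The ratio of reads on 2 calgranulins within a library does not depend on how the library is scaled. In control dams, the ratio of S100A12 to S100A8 reads ranged from 4.50 to 9.40 with a median of 6.83, and with direct HS from 2.91 to 6.86 with a median of 5.10. Of the dams with direct HS, 11 of 12 lay below the median of control dams and 4 of 12 below the lowest of them. The log2 ratio was 2.69 ± 0.28 (SD, n = 19) in control dams and 2.32 ± 0.35 (SD, n = 12) with direct HS, a difference of -0.36 (SE 0.12) with a two-sided permutation p of 0.00312. After adjustment over 6 comparisons of ratios the p was 0.00792. Calving year and season, lactation class and days to calving, which the study put in its model of dams, are not in the labels. Differences in these cannot be told apart from direct HS, here and in the other comparisons of the dam groups.

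S100A12 was lower with direct HS also relative to S100A9. Its ratio to S100A9 ranged from 1.99 to 3.34 (median 2.695) in control dams and from 1.97 to 2.76 (median 2.28) with direct HS, and 11 of 12 dams with direct HS were below the median of control dams. The log2 ratio was 1.40 ± 0.18 (SD, n = 19) and 1.19 ± 0.16 (SD, n = 12), a difference of -0.21 (SE 0.06, two-sided permutation p = 0.00396, adjusted p = 0.00792). The ratio of S100A9 to S100A8 had a median of 2.51 in control dams and 2.24 with direct HS, and its difference of -0.16 (SE 0.12) on the log2 scale did not pass (permutation p = 0.170, adjusted p = 0.170) and was -0.08 without HS-IU_1800. Leaving out each of the 31 dams in turn, an alternative added after the data had been seen, kept both ratios of S100A12 past an adjusted p of 0.05 (at most 0.0188 and 0.0160). HS-IU_1800 had the lowest ratio of S100A12 to S100A8 of all dams. As a description, the log2 CPM of 0.199% of 11538 other genes moved as far relative to S100A8 in either direction, measured by the difference divided by its SE, and 0.0953% as far in the same direction as S100A12. Relative to S100A9, these shares were 0.442% and 0.0173%. The SE is small for the ratio of closely correlated genes, so these shares do not rank the size of the shift.

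In control calves, the ratio of S100A9 to S100A8 ranged from 2.38 to 4.06 with a median of 2.95, against 1.63 to 3.38 and a median of 2.51 in control dams. Of the calves, 7 of 30 lay above the highest control dam and 3 of 30 below the median of the control dams. The log2 ratio was 1.58 ± 0.20 (SD, n = 30) in calves and 1.29 ± 0.25 (SD, n = 19) in dams, a difference of 0.29 (SE 0.07, two-sided permutation p = 4e-05, adjusted p = 0.00024). S100A9 was thus higher in calves than in dams by more than S100A8 was. As a description by the same measure, 6.95% of 11711 other genes moved as far relative to S100A8 in either direction in this comparison. In the same direction as S100A9, the share was 0.717%. The ratio of S100A12 to S100A8 differed by 0.17 on the log2 scale (SE 0.09, permutation p = 0.0569, adjusted p = 0.0854) and that of S100A12 to S100A9 by -0.12 (SE 0.07, permutation p = 0.136, adjusted p = 0.163). Relative to S100A8, 41.2% of other genes moved as far as S100A12 in either direction and 3.65% in the same direction. Relative to S100A9, these shares were 84.0% and 81.8%. The SD of the log2 ratio of S100A9 to S100A8 between calves, 0.20, was smaller than the SD of either gene between the same calves.

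**Figure D4:**
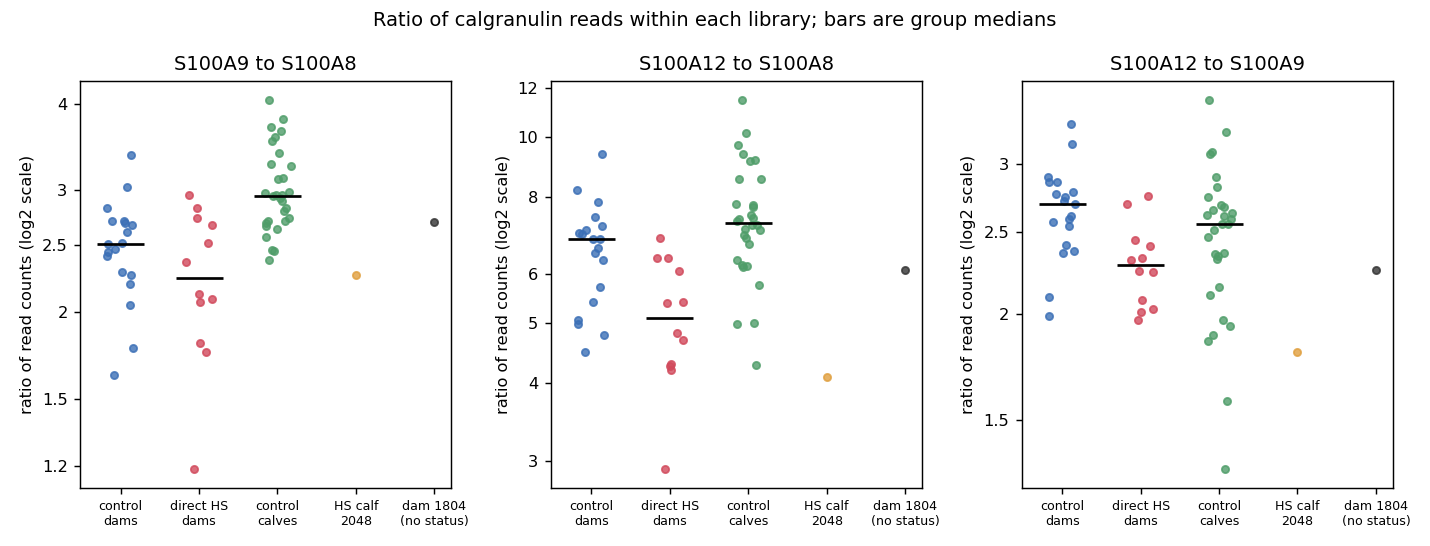
Ratio of read counts of each pair of calgranulins within each library (log2 axis, 1 point per animal), by group, with a bar at the group median. Dams with direct HS lie low in the ratios of S100A12 (median 5.10 against 6.83 in control dams for S100A12 to S100A8), and control calves lie high in S100A9 to S100A8 (median 2.95 against 2.51).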

How the data were processed

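Per the labels and the methods of the study, polyadenylated RNA was sequenced from 1 end, and the reads were trimmed with cutadapt 4.2, checked with FastQC 0.12.1, mapped to ARS-UCD1.2 and counted with STAR 2.7.11a. The authors deposited whole counts per gene without normalization, and which strand was counted is not given in the sources used here. Groups were taken from the labels.

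For genes whose mean count reached 14, groups were tested in R 4.3.3 with edgeR 4.0.16 (quasi-likelihood test, TMM, Benjamini-Hochberg adjustment) without covariates, since those of the study are not in the labels. The SE is the log2 fold change divided by the square root of F. Spread was tested with limma 3.58.1 on absolute deviations of log2 CPM (prior count 2). CPM in the text come from TMM over 63 libraries. The fits were tested on simulated data. DESeq2 1.42.0 and limma-voom were among the alternatives.

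The genes, lists and comparisons were chosen with earlier results of these data known. Named genes were to be the 3 calgranulins, members of lists of S100 genes, receptors and adaptors, NADPH oxidase, myeloid transcription factors and cell type markers, and the 5 genes of most similar pattern per group. Of the 107 other genes of these lists, 100 were found in the annotation and 0 could be paired with an identifier of the counts, so no list was read. The names of the 3 calgranulins come with the choice of identifiers and could not be checked in the annotation. Sequences were not used here.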

Additional observations from a re-analysis of the deposited data

Results flagged for a closer look

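HS-IU_1804, a library labelled dam whose HS status is not in the labels and which entered no comparison, was above the level of every control animal in all 3 calgranulins. It had 4126 CPM of S100A8, 11131 CPM of S100A9 and 25108 CPM of S100A12. These values were 3.64, 3.83 and 3.15 times those of the highest control dam and 2.49, 2.28 and 1.97 times those of the highest control calf. The 3 genes took 3.14% of its reads on genes. The ratios of their reads, 2.698 for S100A9 to S100A8, 6.09 for S100A12 to S100A8 and 2.26 for S100A12 to S100A9, lay within the range of control dams and within that of control calves. This is 1 library without a replicate. The study calls it a dam and an outlier, and saw it as such also in its genomic relationships and metabolites. It was set aside because its expression fell among the calves in a principal component analysis. Its levels are therefore given against both dams and calves, and whether the label dam holds was not tested. The groups of 12, 19 and 30 animals were too large for the outlier test used for small groups, so no animal within them was singled out by it.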

How the results depend on the processing

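No paired analysis was possible because the labels do not tie calves to dams. In direct HS against control dams, 310 genes were called, 503 with DESeq2, 136 without a filter on low counts and, with 1 dam left out at a time, between 130 (HS-IU_1516 left out) and 599 (HS-IU_1568 left out). In these fits the log2 fold change of S100A8 ran from -0.06 to 0.12 and was below 0 without HS-IU_1800 (-0.0563), HS-IU_1828 (-0.0082), HS-IU_1837 (-0.0392) or HS-IU_1863 (-0.0418), so its sign depended on single dams. That of S100A9 ran from -0.22 (HS-IU_1837 left out) to -0.05 (HS-IU_1622 left out), and the log2 ratio of S100A9 to S100A8 from -0.20 to -0.08. In control calves against control dams, S100A8 ran from 0.36 to 0.50 with 1 animal left out and was 0.38 when control and direct HS dams together were set against all calves. Without control calves HS-IU_2008, HS-IU_2010 and HS-IU_2015, its log2 fold change was 0.29 (adjusted p = 0.214). The ratio of S100A12 to S100A8 in this comparison was 0.09 as a difference of medians on the log2 scale and, with 1 animal left out, ran from 0.14 to 0.20 and passed an adjusted p of 0.05 without HS-IU_1817, HS-IU_2037, HS-IU_2043 or HS-IU_2052. The test of spread called 6 genes, 12 on the square root of CPM, 13 without HS-IU_2008, HS-IU_2010 and HS-IU_2015 and 2 without HS-IU_2016, and the causes were not tested. The other fold changes and ratios of the calgranulins kept their direction and their side of an adjusted p of 0.05 under the alternatives run. The 9 correlations did so on linear CPM, with the calgranulins left out of the library size and without the calves named above, and were given no p with 1 animal left out, where r for S100A8 and S100A9 in direct HS fell to 0.595. Library size was not related to the calgranulins within groups at an adjusted p below 0.05 in 9 relations, with r from -0.53 to 0.31 and rho from -0.41 to 0.31 (lowest permutation p 0.0778, lowest adjusted p 0.306). Without the 2 farthest libraries, r ran from -0.15 to 0.26.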

Other observations

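HS-IU_2048, the only calf with the label heat stress, had 437 CPM of S100A8, above 5 of the 30 control calves, and 989 CPM of S100A9, above 3 of them. Its 1785 CPM of S100A12 lay below all 30 control calves, the lowest of which had 1805 CPM. The ratio of S100A12 to S100A8 reads was 4.09, against a range from 4.28 to 11.5 in control calves, and that of S100A9 to S100A8 was 2.27, against 2.38 to 4.06. The ratio of S100A12 to S100A9, 1.80, lay within the range of control calves. These are the values of 1 animal, and no test of heat stress was made in calves. The animal entered 1 alternative fit, of all dams with a status against all calves.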
